A study of Mus musculus with 7 samples.

Results

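Transthyretin and the genes that move, convert and read thyroid hormone were followed in the choroid plexus of mouse embryos exposed to red blood cells. The set comprised the 7 genes Ttr, Slc16a10, Slco1c1, Dio2, Dio3, Thra and Thrb, taken by symbol from the 40873 genes analysed, and all 7 were listed. Poly(A) RNA was sequenced from wild-type (WT) lateral ventricle choroid plexus of CD-1 embryos, an outbred mouse stock, pooled at E15.5 (embryonic day). One group had received washed blood cells of an E14.5 donor litter 24 h earlier (red blood cells, 3 libraries), and the other had received saline (4 libraries). How many embryos or litters went into a pool was not stated in the labels, so p-values reflect only how these libraries vary. In pooled tissue, fewer cells of a type and less RNA per cell cannot be told apart.

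The choroid plexus epithelium is the main site of transthyretin synthesis in the brain and secretes the protein into the cerebrospinal fluid, where it carries thyroxine (T4) and, through retinol-binding protein, retinol. T4 and the more active triiodothyronine (T3) enter cells through carriers, among them the products of Slco1c1 and Slc16a10. The enzyme encoded by Dio2 removes an iodine atom from T4 to make T3, and the enzyme encoded by Dio3 inactivates both hormones. T3 acts through nuclear receptors encoded by Thra and Thrb, which bind DNA with retinoid X receptors and exchange corepressors for coactivators when hormone arrives.

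Total counts ran from 4393860 (saline 4) to 8386928 (saline 3), and a count of 3 was worth 0.683 and 0.358 CPM (counts scaled to library size) in these libraries. Markers of choroid plexus epithelium were abundant, with a summed level of 8691 to 10270.3 CPM for 12 genes. The summed level of 8 hepatocyte markers was 1052 CPM in saline 4 where the other 6 ran from 0.802 to 19.5 CPM, so the Ttr and Dio2 values are given with and without it. All 8 macrophage markers tested were higher at an unadjusted edgeR p under 0.05 after red blood cells, where 5.22% of all genes tested were higher at that p. Their summed level was 217.7 to 285 CPM with saline and 335 to 487.5 CPM with red blood cells. After adjustment 1 of them, Adgre1, passed in edgeR (0.0605% of all genes tested), 7 in DESeq2 (1.41%) and 0 in limma-voom (0.0605%). In edgeR 0 passed without saline 1, 2 or 3, and 3 without red blood cells 1 or red blood cells 3. Over all genes these last fits called 17 of 15125 and 283 of 15175. Of 30 tested markers of endothelium, stroma, neural tissue and erythroid cells, 0 had an unadjusted edgeR p under 0.05, against 9.54% of all genes tested. Red blood cells 3 stood apart in stroma markers (2309 CPM summed, against 1194 to 1560 CPM in the others) and endothelium markers (1176 CPM, against 737 to 934 CPM). Without it 4 of 8 endothelium and 3 of 8 stroma markers had such a p, all lower. In that fit 2032 of 15175 genes had such a p, in either direction. Neural markers had a negative log2 fold change for 7 of 8 genes (median -0.53). Such a p was found for 2 of the 8 in limma-voom, against 1441 of 14869 genes tested. It was found for 2 of the 8 in edgeR without saline 4, against 1413 of 14767. The part of these cells in the results below was not tested.

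Both deiodinase genes encode selenoproteins, in which a UGA codon that would otherwise end translation is read as selenocysteine at the active site. The coding sequence around that codon is shown for the pair because it is the catalytic feature that the activating and the inactivating enzyme share. Each run is 63 bases of the coding strand from a GENCODE M21 transcript, with the selenocysteine codon (TGA in the DNA) in capitals.
Dio2: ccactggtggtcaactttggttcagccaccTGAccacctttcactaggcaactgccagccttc
Dio3: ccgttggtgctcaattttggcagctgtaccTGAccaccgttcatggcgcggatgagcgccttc
On GRCm38 the Dio2 run lies at chr12:90729793-90729855 on the minus strand and the Dio3 run at chr12:110279709-110279771 on the plus strand, each within 1 coding exon. The runs share 41 of 63 bases. Dio2 has another in-frame TGA codon near the end of its coding sequence, which is not shown.

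No member passed the test across all genes. Adjusted p-values from the quasi-likelihood test of edgeR stayed above 0.05 for all 6 members with enough counts, and Dio3 was too low to be tested. Over all 14869 genes tested 0.0605% passed. DESeq2 and limma-voom also called 0 of the 6 members, where they called 1.41% and 0.0605% of their tested genes. At an unadjusted edgeR p under 0.05 there was 1 member, Thrb, against 9.54% of all genes tested. That count became 0 without red blood cells 1 (Thrb, unadjusted p = 0.0826), and 2 without red blood cells 3 (with Slc16a10) or without saline 1 (with Slco1c1). Over all genes 1429 of 15125, 2032 of 15175 and 1125 of 14690 had such a p in these fits, in that order. Thrb was also the only member whose groups did not overlap, which held for 9.59% of all genes tested. Of the 6 members 3 had a positive and 3 a negative log2 fold change (red blood cells minus saline), with a median of -0.03, against 0.00 over all genes tested.

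The carrier gene Ttr had the highest count of all genes in each of the 7 libraries. It had 10128, 11804 and 12013 CPM in red blood cells 1, 2 and 3, and 11802, 11490, 10049.8 and 14879 CPM in saline 1, 2, 3 and 4 (CPM scaled by TMM library sizes). Saline 4 was the highest library, and the other 3 saline libraries spanned nearly the same range as the red blood cell libraries. The groups overlapped, with means of 11315 ± 1034 CPM (SD, n = 3) and 12055 ± 2031 CPM (SD, n = 4). The log2 fold change was -0.09 ± 0.12 (SE, edgeR adjusted p = 0.903), and its 95% interval ran from -0.36 to 0.18. Without saline 4 the saline mean was 11114 ± 934 CPM (n = 3) and the log2 fold change was 0.03.

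Measured as a share of all counts, Ttr took 1.02%, 1.16% and 1.21% of red blood cells 1, 2 and 3. It took 1.19%, 1.15%, 1.00% and 1.46% of saline 1, 2, 3 and 4. The means were 1.13% ± 0.101 (SD, n = 3) and 1.20% ± 0.192 (SD, n = 4), a difference within the spread of the libraries (two-sided exact permutation p = 0.8). With 3 libraries against 4 this test cannot go below 0.0571. The difference was -0.0731 percentage points with saline 4 and 0.0141 without it. Set against the mean log2 CPM of the 12 other epithelium markers in the same library, Ttr stood 5.26 ± 0.09 higher on the log2 scale with red blood cells and 5.25 ± 0.27 higher with saline (two-sided exact permutation p = 0.914). Saline 4 again had the highest value, 5.61, and the difference between the groups was 0.0074 with it and 0.13 without it. The marker mean gives equal weight to Prlr, which had only 3 to 16 counts per library. Against the marker median Ttr stood 4.22 ± 0.17 higher with red blood cells and 4.16 ± 0.25 higher with saline (two-sided exact permutation p = 0.8).

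**Figure D1:**
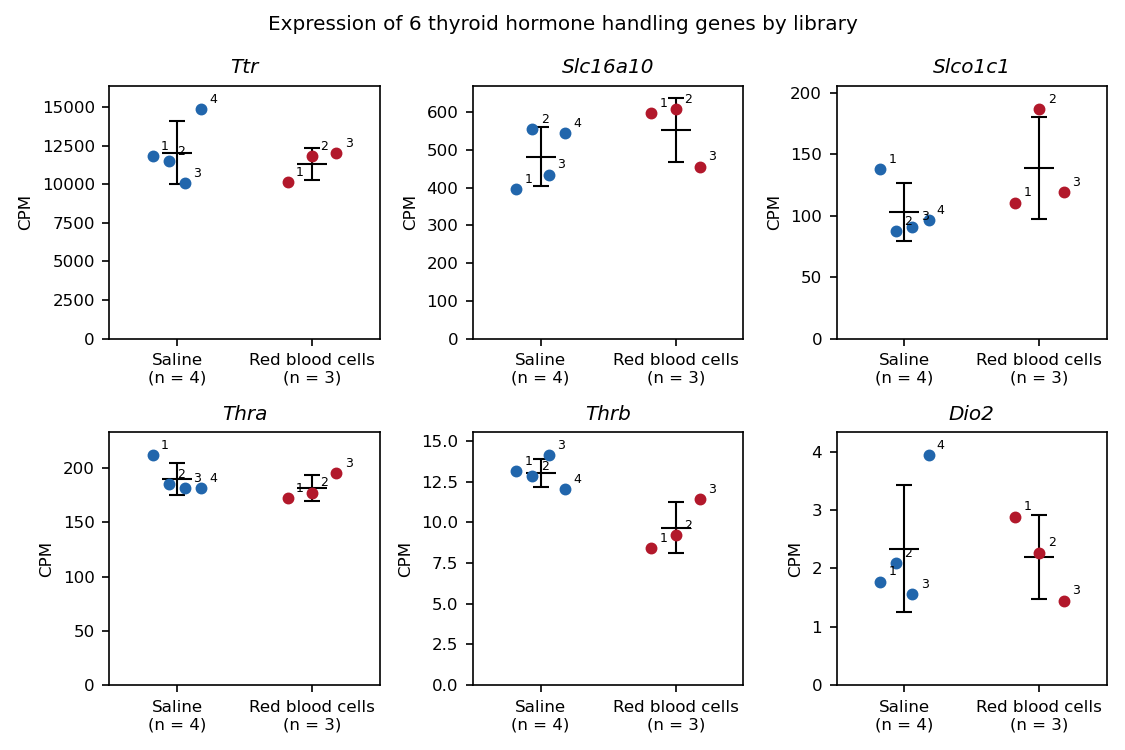
CPM of 6 members in each library, saline in blue and red blood cells in red, with the library number beside each point and the mean ± SD as a black bar. Only the Thrb panel shows groups that do not overlap, with red blood cells at 8.41 to 11.4 CPM and saline at 12.04 to 14.1 CPM.

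Hepatocytes also make transthyretin, and saline 4 was the library with the most hepatocyte transcripts. Afp, the gene of alpha-fetoprotein, had 3470 counts in saline 4 and 177 in the other 6 libraries together. Of these, 119 were in saline 3 and 45 in red blood cells 3. Alb, the gene of serum albumin and another thyroid hormone carrier, had 2063 counts in saline 4 and 28 in the others together. Ahsg had 184 counts in saline 4 and 0 in every other library. Rbp4, the gene of the retinol-binding protein that travels with transthyretin, had 48.4 CPM in saline 4 and 3.93 to 5.62 CPM elsewhere. The part of these transcripts in the Ttr level of saline 4 was not tested.

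**Figure D2:**
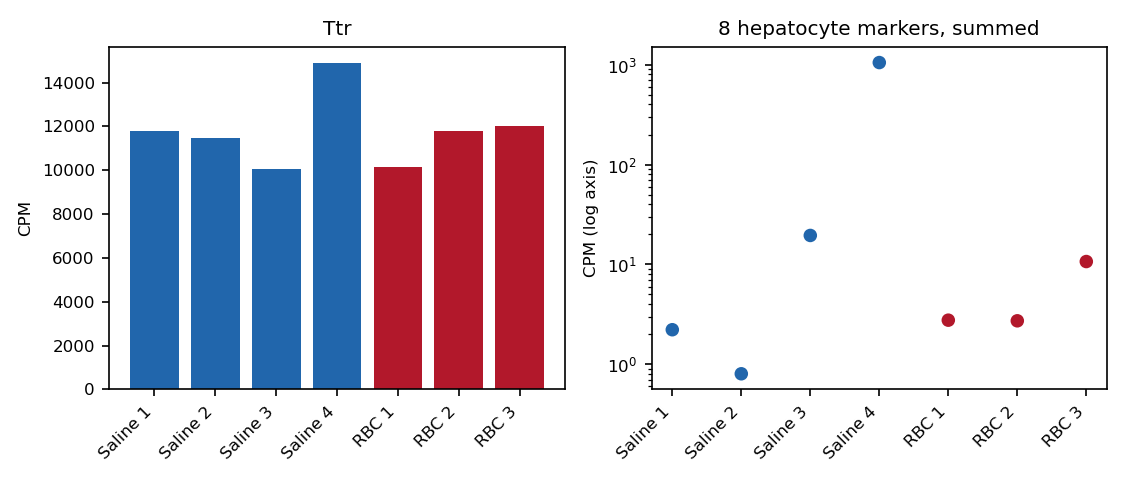
CPM of Ttr (left, bars from 0) and summed CPM of 8 hepatocyte markers (right, log axis) in each library, saline in blue and red blood cells (RBC) in red. Saline 4 is the highest library in both panels, at 14879 CPM for Ttr and 1052 CPM for the markers.

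Stra6, which encodes the membrane receptor of retinol-binding protein, was the most abundant gene of the list of other hormone binding and modifying proteins. By mean CPM Alb and Lrp2 came next, Alb through saline 4 alone (478 CPM there and 0.126 to 1.28 CPM in the other 6 libraries). Stra6 had 122, 137 and 152 CPM in red blood cells 1, 2 and 3, and 174.5, 176.5, 155 and 164 CPM in saline 1 to 4. Every red blood cell library lay below every saline library, with red blood cells 3 and saline 3 nearest to each other. Such a separation in the lower direction was found for 4.63% of all genes tested. The log2 fold change was -0.29 ± 0.08 (SE), with an unadjusted p of 0.00542 and an edgeR adjusted p of 0.219. Without red blood cells 3 it passed (log2 fold change -0.37, edgeR adjusted p = 0.0480). That fit called 283 of 15175 genes, against 9 of 14869 with all 7 libraries. Lrp2, the endocytic receptor megalin, had 59.7 ± 9.62 CPM after red blood cells against 64.5 ± 9.77 CPM after saline. The cytosolic T3-binding protein gene Crym had 22.3 ± 1.93 and 23.4 ± 4.54 CPM. Of the 9 genes of this list 5 could be tested, and 0 passed over all genes in edgeR, DESeq2 or limma-voom. At an unadjusted edgeR p under 0.05 there was 1 (Stra6), against 9.54% of all genes tested.

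Among the transporters, Slc16a10, which carries aromatic amino acids and thyroid hormone, had 597, 609 and 456 CPM in red blood cells 1, 2 and 3. The saline libraries 1 to 4 had 396, 556, 435 and 544 CPM. The groups overlapped over most of their range, and red blood cells 3 lay below saline 2 and saline 4. The means were 554 ± 85.1 CPM (SD, n = 3) and 483 ± 79.1 CPM (SD, n = 4), and the estimated log2 fold change was 0.20 ± 0.15 (SE; 95% interval -0.14 to 0.54; edgeR adjusted p = 0.769).

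Slco1c1, which encodes a high-affinity T4 carrier known from brain capillaries and choroid plexus, had the most uneven level of the 4 abundant members. It had 111, 187 and 119 CPM in red blood cells 1, 2 and 3, against 138, 87.6, 91.03 and 96.4 CPM in saline 1 to 4. Red blood cells 2 stood above all other libraries, and saline 1 lay above the other 2 red blood cell libraries. The log2 fold change was 0.43 ± 0.24 (SE, edgeR adjusted p = 0.675), with a 95% interval from -0.15 to 1.01, and it was 0.15 without red blood cells 2. The summed level of 8 endothelium markers was 737 CPM in red blood cells 2, the lowest of the 7 libraries, where the others had 811 to 1176 CPM.

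None of the other transporter genes tested had groups that did not overlap. Slco1a4, an organic anion carrier that accepts T4, had 385 ± 45.2 CPM after red blood cells against 408 ± 39.9 CPM after saline. Slc3a2, the heavy chain of the amino acid exchangers that also carry thyroid hormone, had 357 ± 17.03 and 339.6 ± 22.3 CPM. Of 10 listed transporters 8 were tested and 0 passed in edgeR, DESeq2 or limma-voom. At an unadjusted edgeR p under 0.05 there were 0, against 9.54% of all genes tested. DESeq2 had 1 of 10 at such a p, against 1267 genes where 19922 were given an adjusted p. In limma-voom it was 0 of 8, against 1441 of 14869. Slc7a8, a light chain of those exchangers, had 270, 325 and 195 CPM in red blood cells 1, 2 and 3 and 213 to 221 CPM with saline. Its log2 fold change was 0.28 ± 0.15 (SE, edgeR adjusted p = 0.626). Without red blood cells 3 it passed (0.45, edgeR adjusted p = 0.0132), in the fit that called 283 of 15175 genes. The median log2 fold change of the list was 0.07, against 0.00 over all genes tested.

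The deiodinase genes were close to the limit of detection. Dio2 had 23, 15 and 8 counts in red blood cells 1, 2 and 3, and 12, 13, 13 and 17 counts in saline 1 to 4. These counts correspond to 2.20 ± 0.722 CPM (SD, n = 3) and 2.34 ± 1.09 CPM (SD, n = 4). The groups overlapped throughout, and the log2 difference of 0.01 ± 0.37 (SE, edgeR adjusted p = 0.998) had a 95% interval from -0.81 to 0.82. That interval covers 0.570-fold to 1.77-fold, so a change of Dio2 within it could not be told from none at this depth. Without saline 4 the saline mean was 1.80 ± 0.267 CPM (n = 3) and the log2 fold change 0.33 (edgeR adjusted p = 0.865). The exons of Dio2 share 480 bases with those of Gm26512 on the opposite strand, which had 3 to 8 counts per library. How reads over the shared bases were counted was not stated, so the effect on the low Dio2 count is not known.

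Dio3 had 0 counts in all 3 red blood cell libraries and 1 count each in saline 2 and saline 4. A count of 0 over the 20176739 counts of the red blood cell group allows a level of up to 0.149 CPM, and 3 counts over the saline group correspond to 0.117 CPM. Both groups were therefore at or under the floor of 3 counts, and no fold change was computed. The log2 ratio of Dio2 to Dio3 counts in a library (0.5 added to each) was 4.87 ± 0.74 with red blood cells and 4.03 ± 0.79 with saline (two-sided exact permutation p = 0.229). With Dio3 at 0 or 1 count, this ratio rests on the Dio2 count, the 0.5 added and single Dio3 counts. Saline 2 and saline 4, with 1 Dio3 count each, had the lowest ratios (3.17 and 3.54). Saline 1 and saline 3 had 4.64 and 4.75, and red blood cells 1, 2 and 3 had 5.55, 4.95 and 4.09. Dio1, the third deiodinase gene, had 1 count in red blood cells 1 and 0 in the other 6 libraries.

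Genes that act on deiodinase turnover or on selenoprotein synthesis were measured more deeply. The ubiquitin ligase gene Marchf6 had 262 ± 26.02 CPM after red blood cells against 267 ± 8.66 CPM after saline. Usp33, a deubiquitinase gene, had 85.3 ± 7.58 and 95.5 ± 7.55 CPM, and Wsb1, which encodes a ubiquitin ligase adaptor for the Dio2 product, had 93.1 ± 18.3 and 83.3 ± 5.90 CPM. Secisbp2, whose product recognises selenoprotein messages, had 26.5 ± 0.509 and 25.2 ± 1.44 CPM. All 10 genes of this list were tested, 0 passed in edgeR, DESeq2 or limma-voom, and 0 had an unadjusted edgeR p under 0.05 (median log2 fold change -0.03).

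**Figure D3:**
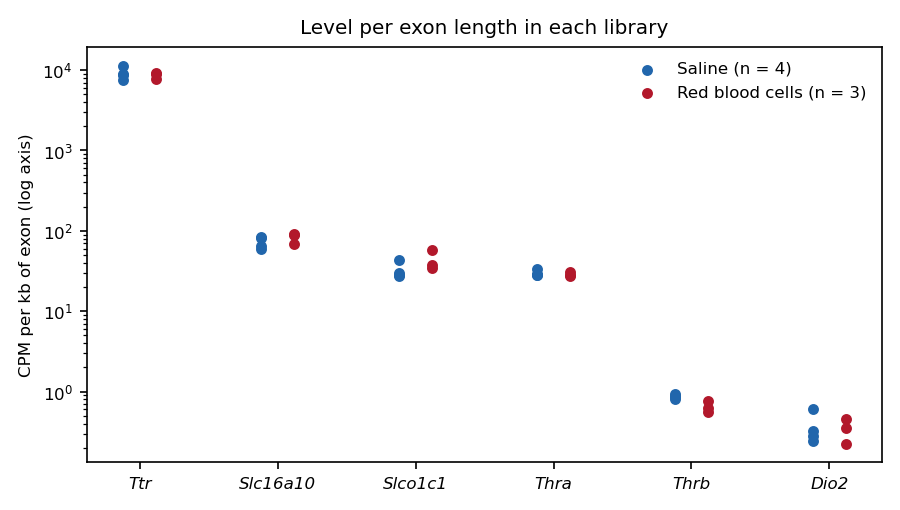
Level of 6 members in each library as CPM per kb of exon, on a log axis, saline in blue and red blood cells in red. Ttr lies between 7625 and 11289 CPM per kb, and Dio2 between 0.226 and 0.614 CPM per kb.

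Levels of different genes were compared per exon length. Over the 7 libraries the mean level was 8906 CPM per kb for Ttr, 77.4 for Slc16a10, 36.9 for Slco1c1, 29.3 for Thra, 0.775 for Thrb, 0.355 for Dio2 and 0.0300 for Dio3, all in CPM per kb. Ttr stood 115-fold above Slc16a10, and Slc16a10 2.10-fold above Slco1c1, with no overlap between the ranges of neighbouring genes. Slco1c1 and Thra were not separated, since Slco1c1 was higher in 5 of 7 libraries and their ranges overlapped. Thra stood 37.8-fold above Thrb. Thrb was above Dio2 in 7 of 7 libraries, although their ranges over all libraries overlapped.

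Of the receptor genes, Thra was the steadiest member, with its highest library 1.23-fold above its lowest. It had 172, 177 and 195.5 CPM in red blood cells 1, 2 and 3, and 212, 185, 181.7 and 181.6 CPM in saline 1 to 4. Saline 1 lay above every other library, and the remaining libraries of both groups were interleaved. The log2 fold change was -0.07 ± 0.08 (SE, edgeR adjusted p = 0.878), with a 95% interval from -0.23 to 0.10, and it was -0.01 without saline 1. The exons of Thra share 263 bases with those of Nr1d1 on the opposite strand, out of 6364 bases. Nr1d1 had 93 to 175 counts per library where Thra had 784 to 1519. The strand setting of the counting is not given, so how reads over the shared bases were counted cannot be told. The table also does not separate the receptor from the Thra splice form that does not bind T3.

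Thrb was lower in every red blood cell library than in any saline library. It had 67, 61 and 63 counts in red blood cells 1, 2 and 3 and 89, 80, 118 and 52 counts in saline 1 to 4. Scaled to library size these were 8.41, 9.23 and 11.4 CPM against 13.2, 12.8, 14.1 and 12.04 CPM. The gap between the nearest libraries, red blood cells 3 and saline 4, was smaller than the range within the red blood cell group. The means were 9.68 ± 1.55 CPM (SD, n = 3) and 13.04 ± 0.857 CPM (SD, n = 4). The log2 fold change was -0.44 ± 0.16 (SE), or 0.737-fold, with a 95% interval from -0.79 to -0.09. The unadjusted p was 0.0172 and the edgeR adjusted p was 0.334, and groups that do not overlap in the lower direction were found for 4.63% of all genes tested. Gm53217, which shares 858 exon bases with Thrb on the opposite strand, had 0 to 2 counts per library.

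The balance of the 2 receptor genes was also compared within each library, which removes the scaling between libraries. The log2 ratio of Thra to Thrb counts (0.5 added to each) was 4.35, 4.25 and 4.09 in red blood cells 1, 2 and 3. It was 4.00, 3.84, 3.68 and 3.90 in saline 1 to 4. All red blood cell libraries had a higher ratio than all saline libraries, with means of 4.23 ± 0.13 (SD, n = 3) and 3.86 ± 0.13 (SD, n = 4). The two-sided exact permutation p was 0.0571, the smallest that this test can give with 3 libraries against 4. With a log2 fold change of -0.07 for Thra and -0.44 for Thrb, the ratio mostly repeats the Thrb difference. It is not a separate result.

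Thrb has more than 1 transcription start, and the gene-level counts do not tell which one was used. The 300-base windows around the 2 starts in the RefSeq table (GRCm38.p6, plus strand, 250 bases before to 50 after the start) are shown because Thrb was the member whose groups did not overlap. The hexamer AGGTCA, the half-site bound by thyroid hormone receptors and other nuclear receptors, was searched on both strands and is in capitals.
Thrb start at chr14:17660710-17661009: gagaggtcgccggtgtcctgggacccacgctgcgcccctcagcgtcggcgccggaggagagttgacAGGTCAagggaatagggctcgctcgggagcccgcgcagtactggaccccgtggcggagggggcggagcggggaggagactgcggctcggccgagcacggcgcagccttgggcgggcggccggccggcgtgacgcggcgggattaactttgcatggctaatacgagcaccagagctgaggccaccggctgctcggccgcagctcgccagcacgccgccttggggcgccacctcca
Thrb start at chr14:17981394-17981693: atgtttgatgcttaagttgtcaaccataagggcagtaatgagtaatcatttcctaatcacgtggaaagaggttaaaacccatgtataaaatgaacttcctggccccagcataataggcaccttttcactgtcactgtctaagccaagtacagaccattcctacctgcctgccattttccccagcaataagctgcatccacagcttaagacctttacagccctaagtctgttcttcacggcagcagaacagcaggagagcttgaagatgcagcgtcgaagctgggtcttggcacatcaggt
The first window holds the hexamer once, and 72.7% of its bases are G or C. The second does not hold these letters and has 46% G or C. The hexamer is held on either strand by 16.3% of all 32851 windows of that RefSeq table. The windows of Slco1c1, Slc16a10, Dio2 and Dio3 do not hold it. A direct repeat of AGGTCA with 4 bases between the copies was in none of the 6 windows of these 5 genes and in 0.0152% of all windows.

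**Figure D4:**
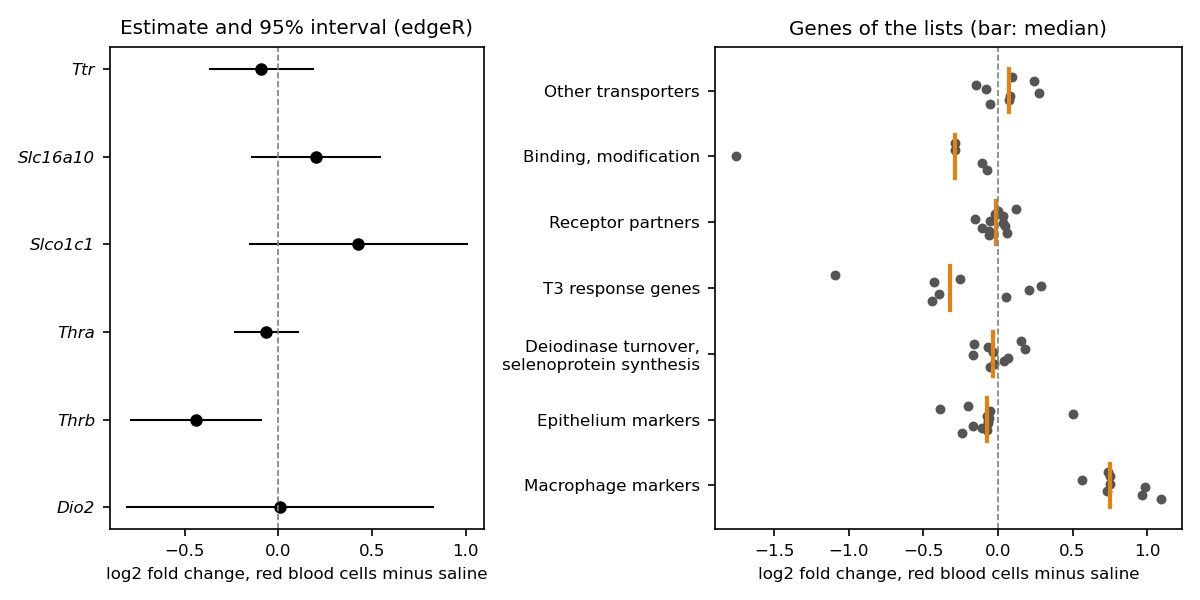
Left, log2 fold change (red blood cells minus saline) of 6 members with its 95% interval from edgeR. Right, log2 fold changes of the tested genes of 7 lists, 1 point per gene, with the list median as an orange bar. Among the members the interval of Thrb alone lies to 1 side of 0, from -0.79 to -0.09.

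None of the tested partners and coregulators of the receptors passed the test. Ncor1, a corepressor gene, had 239 ± 8.79 CPM after red blood cells against 249 ± 7.99 CPM after saline. Tbl1x, a subunit of the corepressor complex, had 146 ± 3.97 and 146 ± 9.44 CPM. The partner gene Rxra had a log2 fold change of 0.03 ± 0.07. Of 13 listed genes 12 were tested, 0 passed in edgeR, DESeq2 or limma-voom, 0 had an unadjusted edgeR p under 0.05, and the median log2 fold change was -0.01.

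Genes used as readouts of T3 action included several with low values after red blood cells, although 0 of the 8 tested passed over all genes in edgeR, DESeq2 or limma-voom. At an unadjusted p under 0.05 edgeR had 3 of the 8 (Dbp, Thrsp and Ppargc1a), all lower, where 4.32% of all genes tested were lower at that p. DESeq2 had 1 of 10 and limma-voom 3 of 8. Over all genes, in either direction, 1441 of 14869 had such a p in limma-voom. In DESeq2 1267 genes had one, where 19922 were given an adjusted p. The median log2 fold change of the 8 was -0.32, against 0.00 over all genes tested. Without red blood cells 1 the count was 1 and the median -0.19. With both red blood cells 2 and saline 4 left out they were 3 and -0.29. Without red blood cells 3 there were 2 lower and 2 higher genes at that p. Over all genes these fits had 1429 of 15125, 1125 of 14979 and 2032 of 15175 at that p, in either direction. With all libraries, 5 of the 8 genes had a negative and 3 a positive log2 fold change (Me1 0.29, Mbp 0.20 and Gpd2 0.05). The genes of this list are also controlled by inputs other than thyroid hormone, Dbp by the circadian clock for example.

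Ppargc1a, a coactivator of mitochondrial genes, had 29.9, 30.7 and 32.2 CPM in red blood cells 1 to 3 and 37.5, 37.2, 38.6 and 33.6 CPM in saline 1 to 4. The groups did not overlap, which in the lower direction held for 4.63% of all genes tested. Saline 4 lay closest to the red blood cell libraries. Ppargc1a fell short of the threshold, at -0.25 ± 0.09 on the log2 scale (SE, edgeR adjusted p = 0.334). Thrsp, a T3-responsive lipogenic gene, had 7, 6 and 3 counts in the red blood cell libraries, against 13, 9, 15 and 7 in the saline libraries, and its groups did not overlap after scaling (log2 fold change -1.09 ± 0.39, edgeR adjusted p = 0.323). Dbp, a clock output transcription factor, had 22.8 ± 5.49 and 30.99 ± 4.65 CPM, with red blood cells 3 above saline 3. Klf9, a direct T3 target in many tissues, had 11.6 ± 0.806 and 15.2 ± 3.56 CPM (log2 fold change -0.40 ± 0.19, unadjusted p = 0.0550), and its groups overlapped. The most abundant genes of the list, Me1 (74.7 ± 18.3 and 61.3 ± 8.08 CPM) and Gpd2 (46.2 ± 1.81 and 44.6 ± 1.54 CPM), both had overlapping groups. Hr, whose product is a corepressor induced by T3 in brain, was below the count filter.

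**Figure D5:**
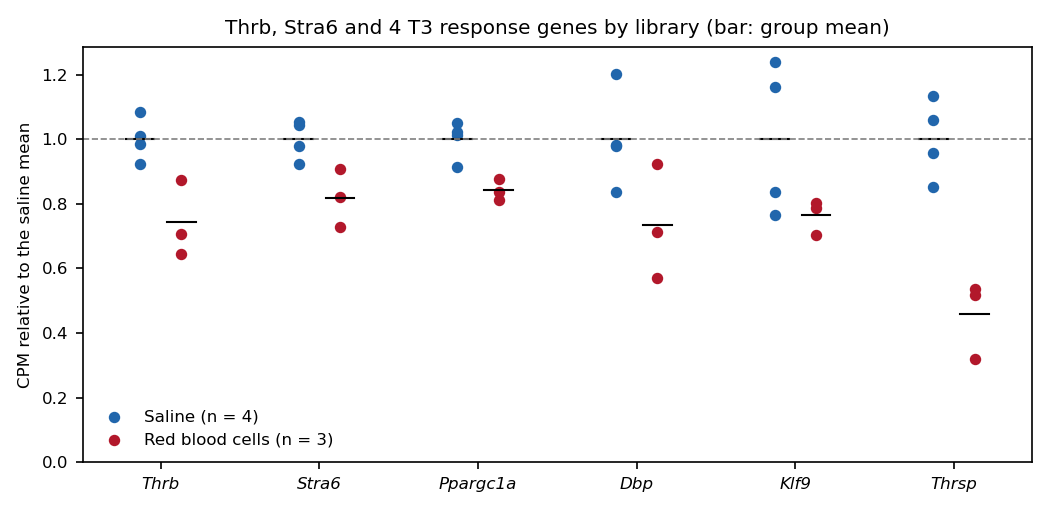
CPM relative to the saline mean for Thrb, Stra6 and 4 T3 response genes in each library, saline in blue and red blood cells in red, with group means as black bars. These genes were chosen after their values were seen. Of the 8 T3 response genes tested, 5 had a negative and 3 a positive log2 fold change, and all 4 drawn had a negative one. The groups do not overlap for Thrb, Stra6, Ppargc1a and Thrsp, and overlap for Dbp and Klf9. Over all genes tested 4.63% had groups that did not overlap in the lower direction.

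The epithelium markers, which come from the cells that make transthyretin, had negative log2 fold changes for 11 of 12 genes (median -0.07), against 7448 of 14869 genes tested (median 0.00). Their summed level was 8691 to 9333 CPM with red blood cells and 9722 to 10270.3 CPM with saline, without overlap. The Ttr groups overlapped, although with all 7 libraries the log2 fold change of Ttr (-0.09) was no smaller in size than the marker median. Without saline 4 it was 0.03 for Ttr, and the marker median was -0.07. The 3 most abundant were Clic6 (2604 ± 164 and 2739 ± 158 CPM), Enpp2 (1322 ± 76.3 and 1426 ± 51.3 CPM) and Kcne2 (1274 ± 20.7 and 1337 ± 72.4 CPM). Over all genes 0 of the 12 passed in edgeR or limma-voom and 2 in DESeq2 (1.41% of its tested genes). At an unadjusted edgeR p under 0.05 there were 4, all lower, where 4.32% of all genes tested were lower at that p, and 3 had groups that did not overlap, all lower, against 4.63%. These 3 were Slc4a5, Aqp1 and Sostdc1. Slc4a5, a bicarbonate transporter gene, had 451, 441 and 397 CPM in red blood cells 1, 2 and 3 and 577, 529, 588 and 555 CPM in saline 1 to 4. Its log2 fold change was -0.39 ± 0.07 (SE, unadjusted p = 0.000107, edgeR adjusted p = 0.0722). It passed in edgeR without red blood cells 3 (adjusted p = 0.0300), where 283 of 15175 genes passed. It also passed without a count filter (adjusted p = 0.00606), where 136 of 26065 genes passed, and in DESeq2. The water channel gene Aqp1 had 954 ± 26.3 CPM after red blood cells against 1128 ± 44.9 CPM after saline (log2 fold change -0.24 ± 0.06, edgeR adjusted p = 0.141), and it also passed in DESeq2 (adjusted p = 0.00266). Sostdc1, the gene of a secreted antagonist of BMP signalling, had 536 ± 36.1 and 616 ± 29.2 CPM (log2 fold change -0.20 ± 0.07, edgeR adjusted p = 0.286). A difference between Ttr and these markers was tested only as the within-library value above.

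Genes whose level followed a member most closely over the 7 libraries were named by Pearson's r of log2 CPM among 11209 genes with a mean count of at least 50. These values are descriptions over 7 libraries that share depth and scaling. For Ttr these were Cdip1 (r = 0.988), Chodl (r = 0.975) and Apoe (r = 0.968). For Thrb they were Rnf214 (r = 0.994), Maco1 (r = 0.981) and Clec18a (r = 0.968). For Slco1c1 they were Zcchc2 (r = 0.990), Grina (r = 0.977) and Ccnl2 (r = 0.973), and for Slc16a10 Odc1 (r = 0.977), Psmd13 (r = 0.963) and Arf6 (r = 0.960). Thra was nearest to Cuedc2 (r = 0.954), Slc25a27 (r = 0.948) and Podxl (r = 0.947), and Dio2 to Pmvk (r = 0.957), Cndp2 (r = 0.951) and Whrn (r = 0.944). None of these genes passed the edgeR test, and their lowest adjusted p was 0.136, for Clec18a.

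On GRCm39 the members lie as follows in the deposited table. Ttr spans 20797266 to 20807383 of chromosome 18 (plus strand), Slc16a10 39909528 to 40018262 of chromosome 10 (minus strand) and Slco1c1 141470080 to 141515903 of chromosome 6 (plus strand). Dio2 spans 90691326 to 90705812 (minus strand) and Dio3 110245664 to 110247531 (plus strand) of chromosome 12. Thra spans 98631539 to 98659832 of chromosome 11 (plus strand) and Thrb 4429599 to 4810538 of chromosome 14 (minus strand there, where the GRCm38 windows above are on the plus strand). Counts cover the exons, from 1318 bases for Ttr to 14960 bases for Thrb.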

How the data were processed

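The authors deposited 1 table with raw read counts of each gene in 7 libraries, beside exon positions and summed exon length; per the file headers this is featureCounts output. Tools named by the submitters' processing notes are cutadapt 2.5, STAR 2.6.1b and featureCounts 2.0.6, with GRCm39 as the build. Which annotation release, strand mode and multi-mapping mode were used was not stated. Libraries were directional, per the labels' protocols. Of 40879 named genes, 6 are broken over 2 lines and were left out; their 6 unnamed lines hold 0.107% of counts.

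Counts were tested with the edgeR 4.0.16 quasi-likelihood F test (robust, TMM, filterByExpr, two-sided, no block) under R 4.3.3, with Benjamini-Hochberg adjustment over 14869 genes and a threshold of 0.05. Standard errors came from the F statistic. CPM used TMM library sizes, and summed CPM too. Single values were compared with exact permutation tests. Alternatives were DESeq2 1.42.0, limma-voom (limma 3.58.1), other normalizations and filters, a fit without robust estimation, a replicate block and each library left out. The tests were tried on simulated data.

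The members and lists were chosen with earlier results of these data known. The rule for named genes took all members, list genes past the threshold or else the 3 most abundant of a list, and the 3 genes nearest to each member. Some list genes that the rule takes are not reported here. Slc7a8, Slc4a5, Aqp1, Sostdc1, Dbp, Thrsp, Klf9, Mbp, Crym, Rxra, Secisbp2, Rbp4, Afp, Ahsg, Dio1, Hr, Gm26512, Gm53217 and Nr1d1 were named after their values were seen. Figures were drawn with matplotlib 3.10.9.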

Additional observations from a re-analysis of the deposited data

Results flagged for a closer look

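Groups of 4 saline libraries were screened for 1 library far from the other 3 (gap to the nearest library over the whole range, Dixon's 95% critical value), in 37 values. Chance gives about 1 in 20 for a value chosen without sight of the data. Some genes screened, such as Rbp4, were named after their values were seen, and some values overlap. That rate therefore does not hold for the 37 values as a set. Thra had 212 CPM in saline 1, where the other saline libraries had 181.6 to 185 CPM. Slco1a4 had 467 CPM in saline 3, against 384 to 396 CPM. The other 4 values were of saline 4. The summed level of the hepatocyte markers was 1052 CPM there, Alb had 478 CPM against 0.837 to 1.28 CPM, and Rbp4 had 48.4 CPM against 4.01 to 5.62 CPM. The list of hormone binding and modifying genes, which holds Alb and Rbp4, summed to 801 CPM against 284 to 300.5 CPM. Ttr in saline 4 (14879 CPM) and Slco1c1 in saline 1 (138 CPM) did not pass this screen.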

How the results depend on the processing

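None of the 6 members tested passed the adjusted threshold under any of the 17 alternatives. Slc16a10, Slco1c1, Thra and Thrb kept their direction in all 17. The log2 fold change of Thrb ran from -0.57 to -0.34 (adjusted p 0.129 to 0.779), and that of Slco1c1 from 0.13 to 0.60. Ttr changed sign without saline 4 (0.033) and with the replicate block, which leaves saline 4 out (0.033); leaving out 1 library gave -0.163 to 0.033, and the share of counts a difference of -0.139 to 0.0141 percentage points. The difference of Ttr from the epithelium markers ran from -0.0893 to 0.129 when 1 library was left out. Dio2 changed sign with DESeq2 (-0.0243), upper quartile normalization (-0.0124) and no count filter (-0.0116), and ran from -0.249 to 0.330 when 1 library was left out. Both count ratios kept their direction in all 8 alternatives. For Dio2 to Dio3 the difference was 0.837 with 0.5 added and 0.343 with 2 added (two-sided exact permutation p = 0.229 and 0.457). That ratio depends on single Dio3 counts in saline 2 and saline 4, so its kept direction is no measure of stability. Dio3 entered the test only where low counts were kept, without a count filter (adjusted p = 0.783) and in DESeq2 (adjusted p not given by the tool), and its fitted fold change there is not reported, since both groups were at or under the floor.

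The number of genes called over the whole table was 9 in edgeR, 280 in DESeq2, 136 without a count filter, 16 without robust estimation, 2 with the replicate block and 40 without red blood cells 2 and saline 4, an alternative added after seeing the data. It ran from 1 (without saline 1, 2 or 3) to 283 (without red blood cells 3) when 1 library was left out. Same-numbered libraries did not deviate together (r = -0.12, -0.12 and -0.18), so the numbers give no pairing, and no library was nearest to its own number. Stra6 passed without red blood cells 3 (-0.37, adjusted p = 0.0480). Among the members, Dio2 and Dio3 had the lowest counts. With the replicate block 2 members, Thrb and Slc16a10, and 2 epithelium markers had an unadjusted p under 0.05, against 1186 of 14767 genes tested.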
